A study of Mus musculus with 13 samples.

Results

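The genes described here are the cytosolic ribosomal protein genes of mouse blood stem and progenitor cells (HSPCs) other than Rpl29, chosen by gene symbol. Of the 55421 genes listed in the deposited tables, 89 had a symbol of the Rps, Rpl, Rplp or Rpsa form, and the 87 with at least 10 raw counts in at least 2 libraries were kept. They comprise 35 genes of the small (Rps) and 52 of the large (Rpl, Rplp) ribosomal subunit, and all 87 entered the test. The other 2, Rpl10l and Rps12l1, had 0 counts in all 10 libraries. By GENCODE M21, 82 of the 87 are protein-coding and 5 (Rpl32l, Rpl6l, Rps3a2, Rps3a3 and Rps4l) are annotated as processed pseudogenes. Rpl29, which the choice leaves out, had a mean of 275 CPM (counts relative to the TMM-scaled library size) in double-mutant libraries, 588 CPM in Srsf2-mutated libraries, 12.4 CPM in libraries labelled Setd2 knockout and 649.7 CPM in wild-type libraries.

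Bulk RNA-seq was available for HSPCs from bone marrow in 4 genotype groups: 3 double-mutant libraries (Setd2 knockout and Srsf2 mutated), 3 Srsf2-mutated libraries, 2 libraries labelled Setd2 knockout and 2 wild-type libraries. Setd2 encodes the methyltransferase that trimethylates lysine 36 of histone H3, Srsf2 encodes a splicing factor that is recurrently mutated in myelodysplastic syndrome, the disease the series addresses. An Mx1-Cre driver, induction by pIpC (a double-stranded RNA that switches this Cre on through the interferon response), a transplantation model and the Lin- c-Kit+ gate are stated for the single-cell samples of the series. For the bulk libraries the labels give neither a driver, gate, age or sex, nor whether replicates came from separate mice, so p-values below measure the spread between libraries, which may be technical.

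Ribosomal proteins assemble with ribosomal RNA into the small subunit, which reads the messenger RNA, and the large subunit, which forms the peptide bond. Their genes are among the most abundantly transcribed in dividing cells, and their messages start with a run of pyrimidines (the 5′ terminal oligopyrimidine or TOP motif), through which mTOR signalling controls their translation. In blood they are known for haploinsufficiency: inherited loss of a copy of any of several of them causes Diamond-Blackfan anaemia in humans, and RPS14 is lost in a form of human myelodysplastic syndrome with a chromosome deletion.

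Library totals ran from 32117387 to 50445434 counts, and no pair of replicates agreed within sampling noise. Cell-type markers differed between the groups. Summed erythroid markers (10 genes) reached 19300 to 20600 CPM in double-mutant libraries, 5650 to 7240 CPM in Srsf2-mutated libraries, 1990 CPM in both libraries labelled Setd2 knockout and 660 to 708 CPM in wild-type libraries. The sum of stem and progenitor markers (12 genes) ran the other way, at 774 to 791 CPM, 1010 to 1060 CPM, 1440 to 1450 CPM and 1710 to 1730 CPM in the same order of groups, with no marker of either list at 0 in any group. Single markers of this list differed in direction. In labelled Setd2 knockout over wild-type libraries 3 were called higher and 4 lower, and in double-mutant over Srsf2-mutated libraries 2 higher and 8 lower. Early neutrophil markers (8 genes) stood at 7250 to 7410 CPM in double-mutant, 9180 to 10800 CPM in Srsf2-mutated, 14200 to 15400 CPM in labelled Setd2 knockout and 26300 to 26700 CPM in wild-type libraries. Late neutrophil markers (8 genes) stood at 31400 to 32100 CPM, 14000 to 17300 CPM, 5860 to 6400 CPM and 16400 to 22900 CPM in that order, with 8 of 8 called higher in double-mutant over labelled Setd2 knockout libraries. Immediate early and heat shock genes (12 genes), which handling can raise, summed to 7190 to 7260 CPM, 8740 to 9070 CPM, 2500 to 2600 CPM and 2050 to 3520 CPM in that order. The part of these differences in the ribosomal protein results was not tested, and in bulk RNA fewer cells of a type and less RNA per cell cannot be told apart. The Y-linked gene Ddx3y averaged 124 CPM in double-mutant and 111 CPM in Srsf2-mutated libraries, and had 0 counts in the libraries labelled Setd2 knockout and in wild-type libraries, so sex-linked differences and Srsf2 status cannot be told apart. Xist averaged 7.41 CPM in double-mutant, 1.78 CPM in Srsf2-mutated, 0.598 CPM in labelled Setd2 knockout and 485.5 CPM in wild-type libraries, so the libraries labelled Setd2 knockout also differed from wild type in a sex-linked gene, and its part in X-linked values was not tested. Setd2 itself averaged 130.4 ± 0.87 CPM in double-mutant, 197 ± 34.8 CPM in Srsf2-mutated (SD, n = 3 each), 222 ± 12.9 CPM in labelled Setd2 knockout and 152 ± 9.63 CPM in wild-type libraries (SD, n = 2 each). A count over the whole gene does not show whether part of it was deleted, and it went against the knockout label, which is why those libraries are called by their label.

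Promoter stretches of RefSeq (GRCm38.p6) are shown for 8 of the genes because they sit at the ends of the responses described below, with the pyrimidine runs marked to show where they lie relative to the start. Each stretch runs from 80 bases before to 20 bases after the annotated start, 5′ to 3′ on the gene's strand, with every unbroken run of 8 or more C or T bases in capitals. The first 4 genes (Rps7, chr12:28635934-28636033, minus strand; Rps15a, chr7:118116128-118116227, minus strand; Rpl39, chrX:37085203-37085302, minus strand; Rps27, chr3:90213629-90213728, minus strand) were among those that fell most in Srsf2-mutated libraries.
Rps7: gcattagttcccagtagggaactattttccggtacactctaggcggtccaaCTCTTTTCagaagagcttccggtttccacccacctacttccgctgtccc
Rps15a: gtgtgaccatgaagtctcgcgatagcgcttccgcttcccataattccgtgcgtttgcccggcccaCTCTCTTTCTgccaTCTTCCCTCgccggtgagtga
Rpl39: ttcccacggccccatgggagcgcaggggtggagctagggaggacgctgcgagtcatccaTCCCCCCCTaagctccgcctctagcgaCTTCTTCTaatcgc
Rps27: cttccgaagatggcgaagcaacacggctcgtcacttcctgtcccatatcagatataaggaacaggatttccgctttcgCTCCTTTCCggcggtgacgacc
The next 3 (Rpl35a, the second of its 3 listed starts, chr16:33056402-33056501, plus strand; Rps9, chr7:3703961-3704060, plus strand; Rpl11, chr4:136053374-136053473, minus strand) were higher in double-mutant libraries than in libraries labelled Setd2 knockout, and the last (Rpl35, chr2:39005112-39005211, minus strand) had the largest interaction among the genes over 50 CPM.
Rpl35a: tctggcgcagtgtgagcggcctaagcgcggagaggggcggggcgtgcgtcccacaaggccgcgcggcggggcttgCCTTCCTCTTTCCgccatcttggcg
Rps9: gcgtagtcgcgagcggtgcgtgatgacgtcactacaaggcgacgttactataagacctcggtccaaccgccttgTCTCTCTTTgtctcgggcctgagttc
Rpl11: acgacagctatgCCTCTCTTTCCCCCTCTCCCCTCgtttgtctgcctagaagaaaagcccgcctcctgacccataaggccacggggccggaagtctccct
Rpl35: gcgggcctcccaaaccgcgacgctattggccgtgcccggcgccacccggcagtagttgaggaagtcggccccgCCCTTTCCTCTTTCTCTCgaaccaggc

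Of the 87 genes, 64 had a promoter entry, with 76 listed starts between them. A run of 8 or more C or T bases, searched on the gene's strand, lay within this 100-base stretch at 50 of the 76 starts (65.8%), against 37.0% of the 32851 starts listed for all genes. The letters CCGGAAG, searched on both strands, stood at 17 of the 76 starts (22.4%), against 5.32% of all starts; its reverse complement, CTTCCGG, can overlap the end of a C or T run. TATAAA, searched as written, stood at 2 of the 76 starts (2.63%), against 3.70% of all starts. A run of C or T bases is present in both directions of response, in Rps7 and Rps15a as in Rps9 and Rpl35a. Relative to the annotated start, the longest run starts at -2 in Rps27, -15 in Rps15a, -21 in Rpl39 and -29 in Rps7. It starts at -6 in Rps9, -5 in Rpl35a, -68 in Rpl11 and -7 in Rpl35. At the other listed starts of Rpl35a it lies at -79 and -37. Rplp0, which also fell in Srsf2-mutated libraries and is not printed, has no such run.

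Ribosomal protein genes took 5.75, 5.73 and 5.82% of all gene counts in the double-mutant libraries, 6.51, 5.70 and 7.34% in the Srsf2-mutated libraries, 6.53 and 7.08% in the libraries labelled Setd2 knockout, and 7.42 and 7.57% in the wild-type libraries. Every double-mutant library lay below both libraries labelled Setd2 knockout, and every library of the 3 mutant groups lay below both wild-type libraries. The Srsf2-mutated libraries spanned nearly the whole range by themselves. Both subunits followed the total, with the small subunit at 2.57 to 2.61% in double-mutant and 3.43 to 3.47% in wild-type libraries, and the large subunit at 3.15 to 3.21% in double-mutant and 3.95 to 4.14% in wild-type libraries.

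**Figure D1:**
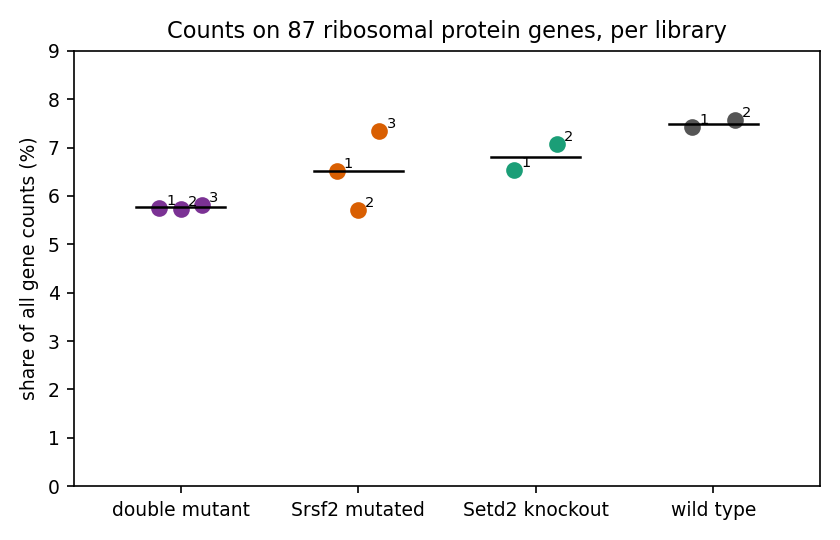
Share of all gene counts that fell on the 87 ribosomal protein genes, in percent, for each library (points, numbered by replicate) with the group mean (line). Shares are of raw counts, without TMM scaling. The double-mutant libraries lie between 5.73 and 5.82% and the wild-type libraries at 7.42 and 7.57%, with the Srsf2-mutated libraries spread from 5.70 to 7.34%.

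The genes differed widely in level. On the FPKM scale, which divides by length, the median gene stood at 329.6 FPKM (mean of the 4 group means), 71 of the 87 exceeded 100 FPKM and 9 were under 10 FPKM. The highest was Rplp1, a protein of the stalk that recruits translation factors to the large subunit, with 2461 ± 29.1 FPKM in double-mutant, 2601 ± 422 FPKM in Srsf2-mutated, 2843 ± 158 FPKM in labelled Setd2 knockout and 3008 ± 126 FPKM in wild-type libraries (SD, n = 3, 3, 2 and 2). Rps3a1 (1770 FPKM, mean of group means), Rplp0 (1727 FPKM), Rps15 (1245 FPKM) and Rpl4 (1183 FPKM) followed. The lowest were Rpl39l (0.0926 FPKM), Rpl24 (0.96 FPKM), Rpl3l (0.991 FPKM), Rpl32l (1.43 FPKM) and Rps10 (2.72 FPKM). Rpl24 and Rps10 are core ribosomal proteins, and their listed exons share bases with same-strand gene models (Gm28037 and RPS10-NUDT3), as do those of Rpl13a (Gm45713), Rpl19 (Gm11629) and Rpl36al (Gm49383). Counts of these 5 are therefore uncertain, and 19 genes, Rpl35, Rpl23a, Rpl30, Rpl5 and Rpl22l1 among them, share exon bases with a gene on the opposite strand, with the strandedness of the counting not given in the sources used here. Ribosomal protein genes also have many near-identical processed copies, so a gene and its copies may share reads.

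The Setd2 knockout label with unmutated Srsf2 was assessed by comparing the libraries labelled Setd2 knockout with the wild-type libraries. The changes of ribosomal protein genes were below 0 for 79 of the 87. Of the 87, 49 were called lower, against 20% of all 19289 genes tested, and 4 were called higher, against 18.8% (edgeR's quasi-likelihood test, Benjamini-Hochberg adjusted p under 0.05). The median log2 fold change was -0.34 for the 87 genes and 0.04 for all genes tested, a distance of -0.39. Among the 75 genes with a mean over 50 CPM, the interquartile range was -0.43 to -0.29, and all 75 lay below 0. Both libraries labelled Setd2 knockout lay below both wild-type libraries for 71 of the 87 genes, as they did for 34.6% of all genes.

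Rpsa, a small subunit protein also known as the laminin receptor, was measured at 2685 and 2723 CPM in the libraries labelled Setd2 knockout, against 3929 and 3701 CPM in the wild-type libraries. The log2 fold change was -0.50 (SE 0.105, adjusted p = 0.00109), with no overlap between the groups. Rpsa is 1 of 6 of the genes on chromosome 9, where Setd2 lies. Rplp0, the stalk protein that anchors Rplp1 and Rplp2, stood at 2512 and 2699 CPM in the labelled knockout libraries and 3856 and 3876 CPM in the wild-type libraries, a change of -0.57 (SE 0.113, adjusted p = 0.000604). Rplp2 fell as well (-0.39, adjusted p = 0.0112), and Rplp1 had a value of -0.30 that did not pass (adjusted p = 0.0577). Rpl39, an X-linked gene for a small protein that lines the peptide exit tunnel, fell the most among genes over 10 CPM, with 354 and 402 CPM in the labelled knockout libraries and 654 and 540.4 CPM in the wild-type libraries (-0.66, SE 0.129, adjusted p = 0.000866). Rps16, a small subunit protein, fell by 0.53 (SE 0.115, adjusted p = 0.0014), with 693 and 754 CPM against 969 and 1120 CPM in wild-type libraries. Rplp0, Rpsa, Rpl39 and Rps16 were among the 5 of 18 named genes called here that passed under every alternative except scaling to the ribosomal protein counts, under which they did not pass.

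Rps6, the small subunit protein that S6 kinase phosphorylates, fell by 0.44 (SE 0.101, adjusted p = 0.0022), and Rps14 fell by 0.47 (SE 0.118, adjusted p = 0.00434). Rps19, the gene most often altered in human Diamond-Blackfan anaemia, fell by 0.39 (SE 0.112, adjusted p = 0.0097), with 764 and 845 CPM in the labelled knockout libraries and 1021 and 1093 CPM in the wild-type libraries. Besides ribosomal protein scaling, the call of Rps19 was lost under 6 alternatives, the GC correction among them (adjusted p = 0.257). That of Rps14 was lost under 5, also with the GC correction (adjusted p = 0.13). The call of Rps6 was lost with library totals as the only scaling (adjusted p = 0.0668). Rpl5 and Rpl11, which bind and inhibit Mdm2 and so link the ribosome to p53, had values of -0.22 and -0.30 that did not pass (adjusted p = 0.0886 and 0.0695). Of 20 genes linked to Diamond-Blackfan anaemia, 13 fell and 1 (Rps10) rose, with a median of -0.37, against 20% lower and 18.8% higher over all genes and 49 and 4 of the 87. Rpl35 (-0.55, adjusted p = 0.0038) and Rpl19 (-0.52, adjusted p = 0.0308) were also among the largest falls. For Rpl19 the call was lost with upper-quartile scaling (adjusted p = 0.0698), library totals as the only scaling (0.15) and the GC correction (0.172). The 4 genes called higher were Rpl13a, Rpl22l1, Rps10 and Rpl24, all at low levels. Rpl13a had 23.6 and 27.8 CPM in the labelled knockout libraries and 16.9 and 21.5 CPM in the wild-type libraries (0.42, SE 0.134, adjusted p = 0.0193).

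Library sizes were also set to the summed counts of the 87 genes. This takes out any change that the genes share, so it shows only which of them depart from the rest. On that scale no gene was called lower by edgeR (3 at an unadjusted p under 0.05), against 4.06% of all genes, and 6 were called higher, against 28.1%. These 6 were Rpl24, Rps10, Rpl13a, Rpl22l1, Rps4l and Rpl36al. The call counts rest on the scaling and on single libraries: 9 genes were called lower and 5 higher with library totals as the only scaling, 26 lower with upper-quartile scaling, 20 lower with a filter at 10 CPM, 22 lower with a correction for GC content, 12 lower without labelled Setd2 knockout replicate 1 and 23 lower without wild-type replicate 2. None was called higher without wild-type replicate 1 (2 at an unadjusted p under 0.05) and 2 without labelled Setd2 knockout replicate 2. Library totals as the only scaling moved the median of all genes by 0.22 in this comparison and the median of the 87 genes to -0.13. The distance of the medians was -0.24 with the filter at 10 CPM and -0.31 with the GC correction.

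With the Srsf2 mutation alone, the changes were more spread. Of the 87 genes, 55 were called lower in Srsf2-mutated than in wild-type libraries, against 27.9% of all genes, and 6 were called higher, against 28.6%. The median log2 fold change was -0.28, against 0.08 for all genes, a distance of -0.36 (-0.13 with a filter at 10 CPM). Among the 75 well-counted genes the values ran from -1.21 to 0.28, and 6 lay above 0. All Srsf2-mutated libraries lay below both wild-type libraries for 54 of the 87 genes, against 33.1% of all genes. Beside these changes, 5 of 10 erythroid markers were called higher and 3 lower, 8 of 8 early neutrophil markers lower, 6 of 7 mast cell and basophil markers higher and 8 of 8 B lymphoid markers higher (938 to 999 CPM summed in Srsf2-mutated and 100 to 116 CPM in wild-type libraries); their part in the result was not tested.

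Rpl39 again fell furthest among genes over 50 CPM, with 276, 209.9 and 289.8 CPM in Srsf2-mutated libraries and 654 and 540.4 CPM in wild-type libraries (-1.21, SE 0.116, adjusted p = 4.02e-07). Rps7, a small subunit protein that also binds Mdm2, had 698, 628 and 793 CPM, against 1396 and 1218 CPM in wild-type libraries (-0.89, SE 0.0877, adjusted p = 1.19e-07). Rps15a, a small subunit protein, had 549.9, 442 and 607 CPM, against 1044 and 889 CPM in wild-type libraries (-0.86, SE 0.105, adjusted p = 2.3e-06). In these 3 genes the highest Srsf2-mutated library lay well below the lower wild-type library, and wild-type replicate 1 lay above replicate 2. Rpl23a, a large subunit protein at the tunnel exit, had 11.7, 10.4 and 14.2 CPM, against 46.7 and 49.3 CPM in wild-type libraries, a change of -1.99 (SE 0.132, adjusted p = 7.19e-10). Rpl30 (-0.89, SE 0.0988, adjusted p = 7.59e-07) and Rps27 (-0.82, SE 0.155, adjusted p = 0.000987) also fell. Rpl23a is counted at a low level for its family, and its exons share bases with the opposite-strand gene Tlcd1.

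Rpsa fell by 0.62 (SE 0.0948, adjusted p = 2.38e-05), Rplp0 by 0.55 (SE 0.101, adjusted p = 0.000155), Rps6 by 0.43 (SE 0.0913, adjusted p = 0.000612) and Rps14 by 0.41 (SE 0.107, adjusted p = 0.00366). With the GC correction the calls of Rps6 and Rps14 were lost (adjusted p = 0.0521 and 0.2). That of Rps14 was also lost with a filter at 10 CPM (adjusted p = 0.0577). Of the genes that bind Mdm2, Rpl5 fell by 0.28 (SE 0.0908, adjusted p = 0.0155) and Rpl11 had a value of 0.14 that did not pass (adjusted p = 0.306). Rpl5 did not pass with library totals as the only scaling (adjusted p = 0.147) or with a filter at 10 CPM (0.261). Rps19 had a value of -0.07 (adjusted p = 0.572), with 1020, 838 and 1161 CPM in Srsf2-mutated libraries around the 1021 and 1093 CPM of the wild-type libraries. Of the 20 genes linked to Diamond-Blackfan anaemia, 11 fell and 1 rose (median -0.27), against 27.9% and 28.6% of all genes and 55 and 6 of the 87. All 4 X-linked genes (Rpl10, Rpl36a, Rpl39 and Rps4x) fell, with a median of -0.47, against 51 of 83 autosomal genes with a median of -0.27. The 6 genes called higher were Rpl23 (0.27, adjusted p = 0.0407, with overlapping groups) and 5 genes under 7 CPM: Rpl3l, Rpl24, Rps3a2, Rpl36al and Rps10.

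Scaled to the counts of the 87 genes, 15 genes were called lower, against 9.62% of all genes, and 17 higher, against 37.4%, so the genes did not keep their proportions. Rpl23a (-1.66), Rpl39 (-0.88), Rpl30 (-0.56), Rps7 (-0.55) and Rps15a (-0.53) were lower relative to the rest, and Rpl21 (0.61), Rpl23 (0.60), Rpl35a (0.55), Rpl11 (0.48) and Rps9 (0.46) were higher. Of 17 named genes called in the comparison with wild type, 11 passed under every other alternative, and 10 of these, Rpl23a, Rpl39, Rps7, Rps15a, Rpl30 and Rps27 among them, under this scaling too, the exception being Rps4x (adjusted p = 0.154). With library totals as the only scaling 33 genes were called lower and 9 higher, with upper-quartile scaling 33 lower, with a filter at 10 CPM 27 lower, with the GC correction 21 lower and 11 higher, with only these 2 groups fitted 36 lower and 3 higher, and without wild-type replicate 2 35 lower. Without wild-type replicate 1, or without Srsf2-mutated replicate 1, 3 genes were called higher.

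**Figure D2:**
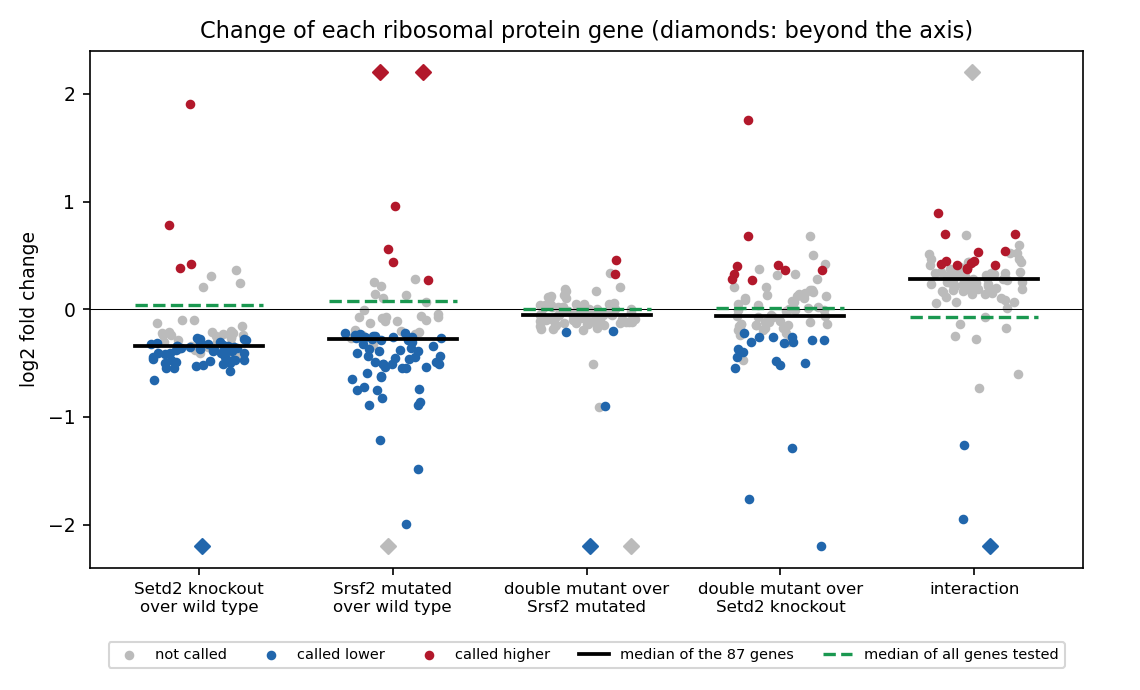
Log2 fold change of each of the 87 ribosomal protein genes in the 5 comparisons, coloured by the call at adjusted p under 0.05, with the median of the 87 genes (solid line) and of all 19289 genes tested (dashed line). Points sit in a narrow band below 0 for labelled Setd2 knockout over wild type (median -0.34) and in a wider one for Srsf2 mutated over wild type (median -0.28), close to 0 for double mutant over Srsf2 mutated (median -0.05), and above 0 for the interaction (median 0.28).

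On top of the Srsf2 mutation, the Setd2 knockout label came with few calls among these genes. Between double-mutant and Srsf2-mutated libraries, 4 genes were called lower, against 16.1% of all genes, and 2 higher, against 17.9%. The median was -0.05, against 0.00 for all genes. The genes called lower were Rpl3l (-2.34, adjusted p = 6.85e-05), Rps4l (-0.90, adjusted p = 3.64e-05), Rps27l (-0.21, adjusted p = 0.0255) and Rpl4 (-0.20, adjusted p = 0.0499). The first 3 are paralogs or copies of a main gene, and Rpl4 is a core large subunit protein with 2033, 2017 and 2041 CPM in double-mutant and 2277, 2108 and 2609 CPM in Srsf2-mutated libraries. Rpl23a was higher (0.46, SE 0.123, adjusted p = 0.0071), with 15.2, 16.8 and 17.7 CPM against 11.7, 10.4 and 14.2 CPM in Srsf2-mutated libraries, and so was Rpl35 (0.33, SE 0.109, adjusted p = 0.0272), with 68.2, 71.4 and 64.4 CPM against 54.2, 46.6 and 61.2 CPM. All double-mutant libraries lay below all Srsf2-mutated libraries for 5 genes (21.3% of all genes) and above them for 3 (24%). Scaled to the counts of the 87 genes, 3 were called higher (Rpl23a, Rpl35 and Rps29), against 14.8%, and 2 lower (Rpl3l and Rps4l), against 7.2%. Rpl23a, Rpl3l and Rps4l passed under every alternative that kept them. All 75 well-counted genes were higher in Srsf2-mutated replicate 3 than in Srsf2-mutated replicate 2 (median difference 0.42). Without Srsf2-mutated replicate 2, 24 genes were called lower and 1 higher, and without Srsf2-mutated replicate 3, 2 were called lower and 4 higher. Leaving out Srsf2-mutated replicate 1 or double-mutant replicate 1 or 2 left 1 called higher, and leaving out any 1 double-mutant library left 2 called lower. Upper-quartile scaling gave 10 lower and 1 higher, library totals as the only scaling 27 lower and 1 higher, and no filter 12 lower.

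The labelled Setd2 knockout background gave the Srsf2 mutation a second comparison, between double-mutant libraries and libraries labelled Setd2 knockout. Here 19 genes were called lower, against 25.9% of all genes, and 9 higher, against 26%, and the median was -0.06 (0.01 for all genes). The 2 counts together are 28 of the 87, against 51.9% of all genes. All double-mutant libraries lay below both libraries labelled Setd2 knockout for 35 of the 87 genes (37.2% of all genes), and above both for 23 (36.3% of all genes).

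Rps7 had 664, 661 and 656 CPM in double-mutant libraries and 939 and 953 CPM in libraries labelled Setd2 knockout (-0.52, SE 0.088, adjusted p = 7.09e-05). Rpl39 had 274, 260.4 and 266 CPM against 354 and 402 CPM (-0.50, SE 0.116, adjusted p = 0.0019). Rpl30 had 113, 116 and 117 CPM against 157 and 182 CPM (-0.55, SE 0.0992, adjusted p = 0.000147). In these 3 genes the double-mutant libraries lay close together and below both libraries labelled Setd2 knockout. Rpl23a fell by 1.29 (SE 0.13, adjusted p = 1.57e-07), Rpl7l1 by 0.48 (SE 0.0711, adjusted p = 1.75e-05) and Rpsa by 0.31 (SE 0.0952, adjusted p = 0.0113). On the other side, Rpl35a, a large subunit protein linked to Diamond-Blackfan anaemia in humans, was higher, with 481, 493 and 547 CPM in double-mutant libraries and 269.6 and 362 CPM in libraries labelled Setd2 knockout (0.68, SE 0.153, adjusted p = 0.00261). The small subunit proteins Rps9 (0.41, SE 0.101, adjusted p = 0.00224) and Rps23 (0.40, SE 0.118, adjusted p = 0.0091), which sit by the decoding and messenger RNA entry sites, were higher, as were Rpl23 (0.36), Rpl41 (0.36), Rpl11 (0.33), Rps19 (0.28), Rps16 (0.27) and Rpl3l (1.76). Rps19 had 971, 957 and 997 CPM against 764 and 845 CPM (adjusted p = 0.0311). It did not pass with upper-quartile scaling (adjusted p = 0.0682) or library totals as the only scaling (0.429). Scaled to the counts of the 87 genes, 13 were called higher, against 23.7% of all genes, and 14 lower, against 18.3%, Rpl35a at 0.74 and Rps7 at -0.47 among them. Of the named genes, Rpl23a, Rpl30, Rpl35a, Rpl39, Rpl7l1, Rps4l and Rps7 passed under every alternative. Without labelled Setd2 knockout replicate 1, which was the lower of that pair for 74 of 75 well-counted genes, 3 genes were called higher, and without Srsf2-mutated replicate 2, 14 were. Library totals as the only scaling gave 3 higher and 39 lower (it moved the median of all genes by -0.19), upper-quartile scaling 6 higher and 21 lower, the GC correction 14 higher and 10 lower, and a fit of only these 2 groups 20 higher and 35 lower.

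The 2 comparisons of the Srsf2 mutation share no library, so their values can be set against each other. Of the 19 genes called lower in double-mutant libraries, 18 were also called lower in Srsf2-mutated libraries (94.7% of the 19 and 32.7% of the 55). The exception was Rpl4, which had a value of -0.19 there (adjusted p = 0.0601). With 55 of the 87 genes called lower in Srsf2-mutated libraries, many shared calls were likely in any case. Overlaps of calls over all genes were not counted. Of the genes called higher, Rpl23 and Rpl3l were shared (22.2% of 9 and 33.3% of 6), and Rps16 was called lower in Srsf2-mutated and higher in double-mutant libraries. Over the 75 well-counted genes the 2 sets of log2 fold changes had a Pearson r of 0.81 and a Spearman rho of 0.78, against 0.73 and 0.55 over the 4792 genes of all kinds above the same level. These are correlations across genes, which share libraries, scaling and 1 fit and are not independent replicates. The difference between the 2 wild-type libraries (replicate 2 minus 1) also varied along these genes: it ran from -0.28 for Rpl39 to 0.48 for Rpl38 and had a Pearson r of 0.71 with the double-mutant over labelled Setd2 knockout values, with which it shares no library (0.11 over all genes). For the Setd2 knockout label, the comparisons on the 2 backgrounds had a Pearson r of -0.16 over the 75 genes. They had 1 gene called lower in common (Rps27l, 2.04% of 49 and 25% of 4), while Rpl35 was called lower on the normal and higher on the Srsf2-mutated background. The difference between the 2 libraries labelled Setd2 knockout (replicate 2 minus 1) shares no library with the double-mutant over Srsf2-mutated values. It had a Pearson r of 0.57 with them over the 75 genes (-0.06 over all genes).

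**Figure D3:**
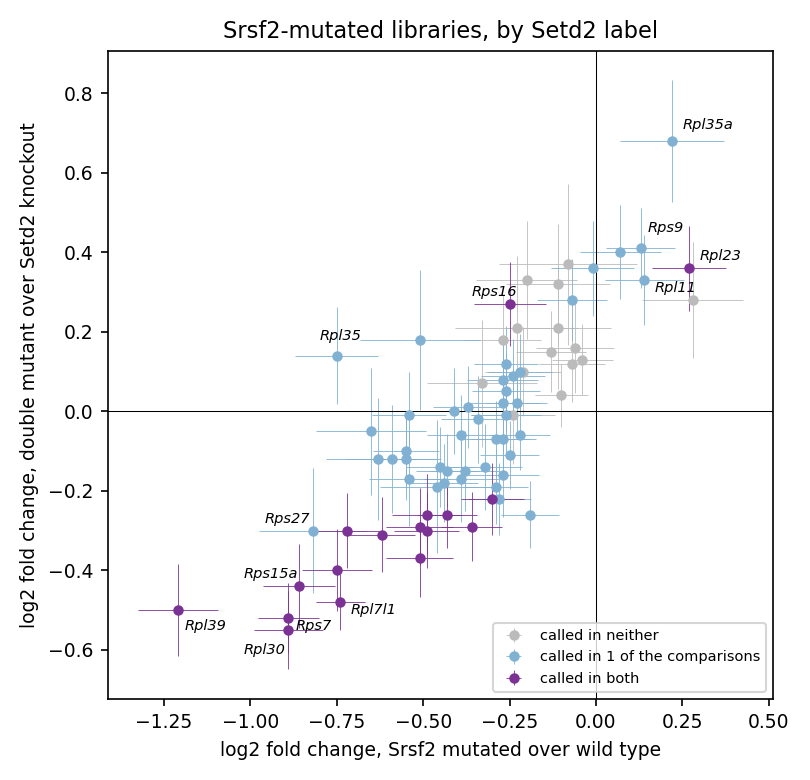
Log2 fold change of the 75 ribosomal protein genes over 50 CPM in double-mutant over labelled Setd2 knockout libraries (vertical) against Srsf2-mutated over wild-type libraries (horizontal), with standard errors and coloured by the calls. The points rise together (Pearson r 0.81), from Rpl39 and Rps7 at the lower left to Rpl35a, Rps9 and Rpl23 at the upper right.

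**Figure D4:**
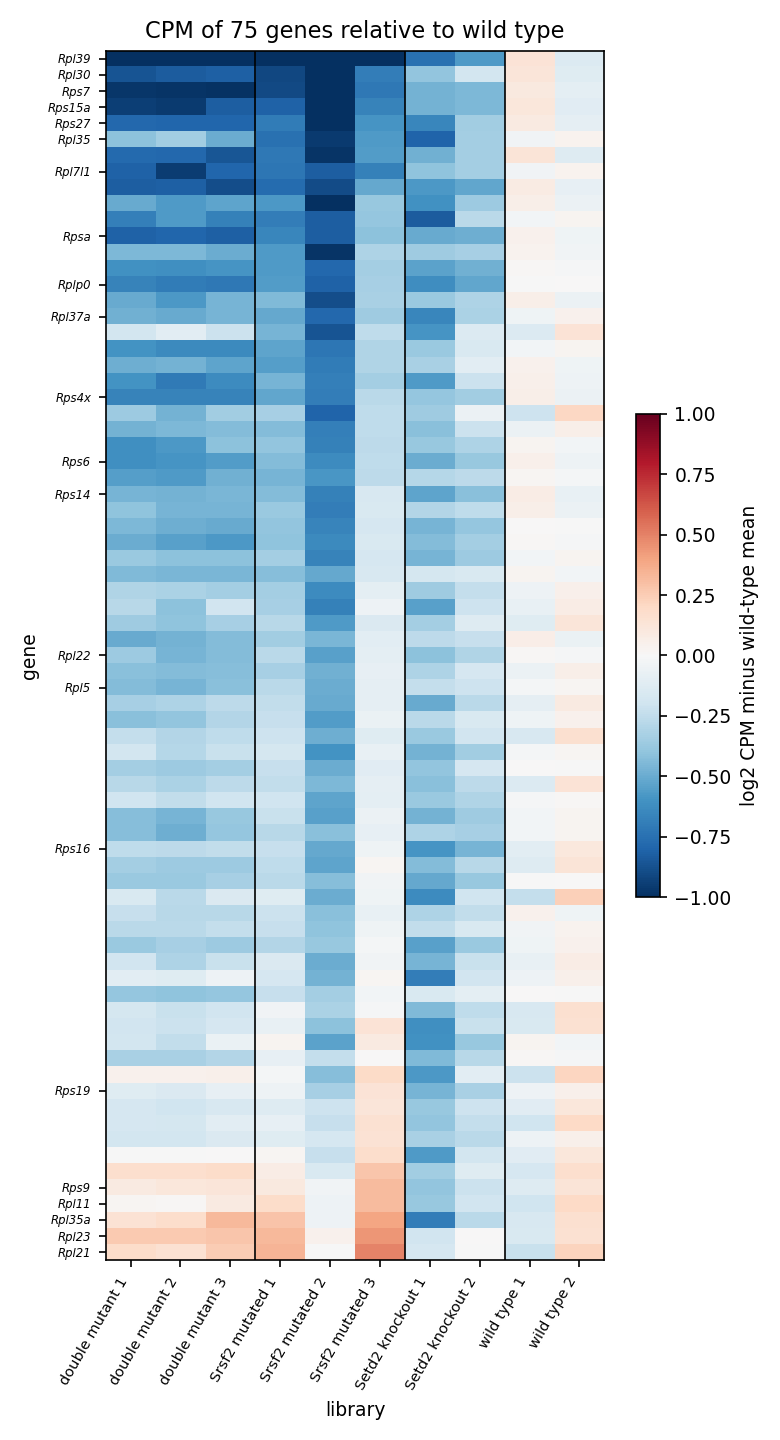
CPM of the 75 ribosomal protein genes over 50 CPM (rows, ordered by the change in Srsf2-mutated over wild-type libraries) in each library (columns), as log2 CPM minus the wild-type mean, with the colour scale capped at -1 and 1; gene names are given for a selection of rows. Libraries labelled Setd2 knockout are mostly below wild type, with replicate 1 lower than replicate 2 for 74 of the 75 genes (median difference 0.16). The Srsf2-mutated and double-mutant libraries run from strongly lower (Rpl39, Rps7) to slightly higher (Rpl23, Rpl35a). Srsf2-mutated replicate 2 is lower than replicate 3 for all 75 genes.

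Whether the changes add up was tested by the interaction, the log2 change with the Setd2 knockout label on the Srsf2-mutated background minus that on the normal background, which is 0 when the 2 changes simply add. It was called above 0 for 13 of the 87 genes, against 16.8% of all genes, and below 0 for 3, against 15.3%. The median was 0.28, against -0.07 for all genes, and 74 of the 75 well-counted genes lay above 0. The largest well-counted value was that of Rpl35, a large subunit protein at the tunnel exit (0.89, SE 0.172, adjusted p = 0.000868). Rpl35 had 68.2, 71.4 and 64.4 CPM in double-mutant, 54.2, 46.6 and 61.2 CPM in Srsf2-mutated, 52.1 and 71.6 CPM in labelled Setd2 knockout and 88.6 and 92.9 CPM in wild-type libraries. Each single group lay below wild type, and the double-mutant libraries lay above the Srsf2-mutated ones. Rpl39 (0.70, SE 0.166, adjusted p = 0.00417), Rpl23a (0.70, SE 0.187, adjusted p = 0.00764) and Rpl37a (0.54, SE 0.152, adjusted p = 0.0122) followed. The 3 below 0 were Rpl24 (-2.82), Rpl3l (-1.95) and Rps4l (-1.26), none above 14.2 CPM in any library. Scaled to the counts of the 87 genes, Rpl35 alone was called above 0 (0.61, adjusted p = 0.0179), against 6.86% of all genes, and 5 below, against 18.7%. The count above 0 depended on single libraries, at 48 without Srsf2-mutated replicate 3, 5 without Srsf2-mutated replicate 1, 2 without labelled Setd2 knockout replicate 1, and 6, 7 and 7 without double-mutant replicates 1, 2 and 3. It was 3 above and 4 below 0 with upper-quartile scaling, 1 above and 7 below with library totals as the only scaling (median -0.03, all genes moved by -0.31), 6 and 5 with the GC correction, 38 above without the filter, 5 above with a filter at 10 CPM and 26 above by DESeq2. The distance of the medians was 0.35, and 0.23 with the filter at 10 CPM, 0.30 with the GC correction and 0.41 without the filter.

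Paralogs, several of which can take the place of the main protein, were set beside their main genes. Rpl22, a large subunit protein deleted in some human leukaemias, fell by 0.35 in libraries labelled Setd2 knockout (333 and 359 CPM, against 445 and 439 CPM in wild type; adjusted p = 0.0125). Its paralog Rpl22l1, which Rpl22 is known to repress in mouse, rose by 0.38 (24.7 and 26.6 CPM, against 18.8 and 20.5 CPM; SE 0.137, adjusted p = 0.0352). The call of Rpl22l1 was lost without any 1 of the 4 libraries compared, without double-mutant replicate 1 and with the GC correction (adjusted p up to 0.237). In Srsf2-mutated libraries Rpl22 fell by 0.29 (adjusted p = 0.0143). Rpl22 did not pass under ribosomal protein scaling in either comparison, nor under 8 other alternatives in labelled Setd2 knockout (adjusted p up to 0.284) and 9 in Srsf2-mutated over wild-type libraries (up to 0.407). These include leaving out wild-type replicate 1 or 2 in both, labelled Setd2 knockout replicate 1 in the first and Srsf2-mutated replicate 2 in the second. In Srsf2-mutated libraries Rpl22l1 had a value of -0.07 (adjusted p = 0.644).

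Rps27 had 249.2, 248.5 and 248.9 CPM in double-mutant, 265, 184 and 286 CPM in Srsf2-mutated, 274 and 337 CPM in labelled Setd2 knockout and 457 and 404 CPM in wild-type libraries. Rps27l, a p53-responsive paralog, had 94.6, 94.5 and 96.7 CPM in double-mutant, 112, 100.2 and 119 CPM in Srsf2-mutated, 87.4 and 97.7 CPM in labelled Setd2 knockout and 119 and 118 CPM in wild-type libraries. Rps27 was called lower than wild type in both single groups, but in labelled Setd2 knockout (-0.50, adjusted p = 0.0425) the call was lost under ribosomal protein scaling (adjusted p = 0.415) and 10 other alternatives (adjusted p up to 0.282), among them leaving out wild-type replicate 1 or 2, labelled Setd2 knockout replicate 1 or Srsf2-mutated replicate 3. Rps27l was lower in labelled Setd2 knockout than in wild-type libraries (-0.36, adjusted p = 0.00289) and had a value of -0.10 in Srsf2-mutated libraries (adjusted p = 0.267). Its call in labelled Setd2 knockout was lost with library totals as the only scaling (adjusted p = 0.189).

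Rps4x, the X-linked small subunit gene, fell in both single groups (-0.37 and -0.49 in labelled Setd2 knockout and Srsf2-mutated over wild-type libraries, adjusted p = 0.00981 and 0.000281). Rps4l, annotated as a processed pseudogene, had 4.24, 3.61 and 4.59 CPM in double-mutant, 7.26, 7.53 and 8.50 CPM in Srsf2-mutated, 13.98 and 14.2 CPM in labelled Setd2 knockout and 10.99 and 11.03 CPM in wild-type libraries. The groups did not overlap for Rps4l, and it was 3.4-fold lower in double-mutant libraries than in libraries labelled Setd2 knockout (adjusted p = 9.33e-09). Rpl3l, a paralog of Rpl3 known from striated muscle, was listed at 0.815, 0.634 and 1.39 CPM in double-mutant, 4.29, 5.12 and 5.06 CPM in Srsf2-mutated, 0.475 and 0.0846 CPM in labelled Setd2 knockout and 0.423 and 0.306 CPM in wild-type libraries. It was 13.1-fold higher in Srsf2-mutated than in wild-type libraries (log2 3.72, SE 0.486, adjusted p = 3.87e-06) at a level far under the 1447 to 1802 CPM of Rpl3 in the same libraries. Rpl7 fell by 0.39 in labelled Setd2 knockout and by 0.38 in Srsf2-mutated over wild-type libraries (adjusted p = 0.00993 and 0.00332), and Rpl7l1 fell by 0.37 in labelled Setd2 knockout and by 0.74 in Srsf2-mutated over wild-type libraries (adjusted p = 0.000997 and 7.77e-08). With library totals as the only scaling the call of Rpl7l1 in labelled Setd2 knockout was lost (adjusted p = 0.112). Rpl36al, at 2.75 to 5.73 CPM, was called higher in Srsf2-mutated than in wild-type libraries (0.56, adjusted p = 0.0381), while X-linked Rpl36a was lower (-0.46, adjusted p = 0.038). The call of Rpl36al was lost under 6 alternatives, among them a fit of only these 2 groups (adjusted p = 0.0657). Rpl39l had 0 counts in the double-mutant libraries, 0, 3 and 0 in the Srsf2-mutated libraries, 0 in the libraries labelled Setd2 knockout and 13 in each wild-type library. Against an assumed floor of 3 counts per library it was 4.72-fold lower in labelled Setd2 knockout than in wild-type libraries. That value leaves out the error of the 13 counts. The call of Rpl39l was lost under 6 alternatives, a replicate block among them (adjusted p = 0.0515). With Rpl39l at that floor the median of the 87 genes is unchanged at -0.34.

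**Figure D5:**
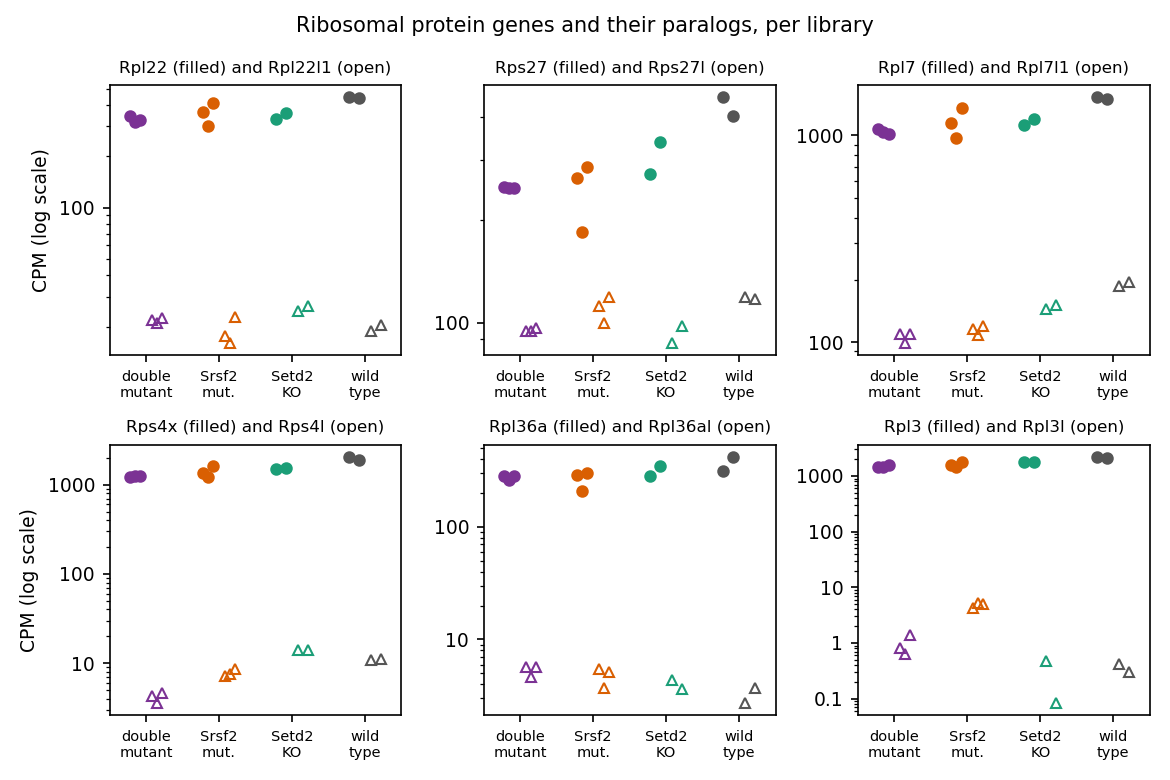
CPM on a log scale of 6 ribosomal protein genes (filled circles) and their paralogs (open triangles) in each library, by group. Rpl22l1 is highest in the libraries labelled Setd2 knockout (24.7 and 26.6 CPM), Rps4l lowest in the double-mutant libraries (3.61 to 4.59 CPM) and Rpl3l highest in the Srsf2-mutated libraries (4.29 to 5.12 CPM).

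Other genes of protein synthesis were read from the same fits. Of 21 further TOP messages (translation factors and related genes), 8 fell and 3 rose in labelled Setd2 knockout over wild-type libraries (median -0.20), against 20% and 18.8% of all genes, and 12 fell and 2 rose in Srsf2-mutated over wild-type libraries (median -0.24), against 27.9% and 28.6%. These shares hold for the lists that follow. The elongation factor Eef2 fell by 0.50 in the first (adjusted p = 6.82e-05), and Rack1, a scaffold on the small subunit, fell by 0.72 in the second (adjusted p = 1.55e-06). Hnrnpa1, an RNA-binding protein, rose in both (0.59 and 0.89, adjusted p = 2.99e-05 and 3.9e-08). Fau, which carries ribosomal protein S30, fell by 0.44 and 0.28 in the same comparisons (adjusted p = 0.00666 and 0.0321).

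Of 57 ribosome biogenesis factors, 19 rose and 6 fell in labelled Setd2 knockout over wild-type libraries (median 0.15, against 0.04 for all genes), and 24 rose and 10 fell in Srsf2-mutated over wild-type libraries (median 0.10, against 0.08 for all genes). Gnl3, the nucleolar GTPase nucleostemin, rose by 1.14 and 1.0 (adjusted p = 2.49e-09 and 1.26e-09), and Nop58, a core protein of the box C/D particles that methylate ribosomal RNA, by 0.61 and 0.77 (adjusted p = 1.23e-05 and 1.05e-07). On top of the Srsf2 mutation, 34 fell and 1 rose (median -0.21), against 16.1% and 17.9% of all genes, with nucleolin (Ncl) at -0.52 (adjusted p = 3.63e-06), and in double-mutant over labelled Setd2 knockout libraries 32 fell and 2 rose (median -0.25), against 25.9% and 26%. Their interaction was called below 0 for 31, against 15.3% of all genes, with a median of -0.35 (0.28 for the ribosomal protein genes).

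Of 15 genes of RNA polymerase I, which transcribes ribosomal RNA, 4 rose and 1 fell in labelled Setd2 knockout, and 3 rose and 6 fell in Srsf2-mutated over wild-type libraries, with Taf1d higher in both (0.84 and 1.25, adjusted p = 9.19e-07 and 8.73e-10). Of 19 genes of growth control, 3 rose and 4 fell, and 4 rose and 8 fell, in the same comparisons. Over all genes, 18.8% rose and 20% fell in the first, and 28.6% rose and 27.9% fell in the second. Myc, a transcriptional activator of ribosomal protein genes, averaged 135 ± 8.62 CPM in double-mutant, 194 ± 11.3 CPM in Srsf2-mutated (SD, n = 3 each), 405 ± 3.88 CPM in labelled Setd2 knockout and 393 ± 11.6 CPM in wild-type libraries (SD, n = 2 each). It fell in Srsf2-mutated libraries (-1.02, adjusted p = 1.36e-09) and further in double-mutant libraries (-0.52, adjusted p = 5.02e-06), and had a value of 0.05 in labelled Setd2 knockout over wild-type libraries (adjusted p = 0.685). Mitochondrial ribosomal protein genes (77) fell for 30 genes and rose for 4 in labelled Setd2 knockout (median -0.22), and fell for 31 and rose for 3 in Srsf2-mutated over wild-type libraries (median -0.16). They fell for 26 and rose for 2 in double-mutant over Srsf2-mutated libraries (median -0.20), against 16.1% and 17.9% of all genes. Of 104 ribosomal protein pseudogenes, 19 fell and 3 rose in labelled Setd2 knockout, and 16 fell and 21 rose in Srsf2-mutated over wild-type libraries (medians -0.38 and -0.01), counts near or below the shares over all genes.

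In the authors' deposited table of labelled Setd2 knockout over wild type, 56 of the 87 genes have an adjusted p under 0.05 and a negative log2 fold change (12.5% of all genes with a fit) and 4 a positive one (11.9%). In the authors' deposited table of Srsf2 mutated over wild type, 50 are negative (16.5%) and 7 positive (19.0%), with a median of -0.25. In the authors' deposited table of double mutant over Srsf2 mutated, 1 is negative (1.54%) and 0 are positive (2.83%), where edgeR called 4 and 2.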

How the data were processed

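The 10 bulk RNA-seq libraries came in 3 deposited tables, 5 of them listed in 2 tables; 3 single-cell samples were not analysed here. Raw counts per gene were deposited by the authors, and the submitters' processing notes name DESeq2 1.22.2, the aligners STAR 2.6.1a and HISAT2 2.0.5, the counters featureCounts 2.0.1 and HTSeq 0.9.1, and the build mm10 (GRCm38), without saying which tool made which column. The deposited FPKM values equal the count per listed length and total count to within 1% for 100% of values. The authors' deposited comparison columns hold log2 fold changes, p-values, a mean normalised signal and a test score; the first 2 were read. Counts were fitted here with edgeR 4.0.16 (robust quasi-likelihood, TMM, R 4.3.3, limma 3.58.1) over 19289 genes left by filterByExpr, with 1 term per group and Benjamini-Hochberg adjustment over all of them. Library totals of 32117387 to 50445434 counts set the counting error. CPM and FPKM values are given per library, and SDs are over libraries. The interaction is double mutant minus Srsf2 mutated minus the difference of labelled Setd2 knockout and wild type.

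Alternatives were median-of-ratios, upper-quartile, ribosomal protein and total-count scaling, no filter and one at 10 CPM in 2 libraries, DESeq2 1.42.0, 2 groups only, a replicate block, each library left out, no listed paralogs, protein-coding genes only, and an offset for transcript GC content. The genes named per comparison are fixed role genes and paralogs, the 6 called genes of largest change in each direction that reach 10 CPM without overlap (4 for the interaction), up to 3 called genes per other list, and the 5 highest and lowest by FPKM. Rpl3, Rpl14, Rpl21, Rps3a2, Rpl36a, Rpl38 and a few others were named after their values were seen. The genes and lists were chosen with earlier results of these data known. Promoters are RefSeq's (GRCm38.p6) and gene models GENCODE M21. Genes whose values are not reported here stay in the counts. The script was tested on simulated data. Figures used Python 3.11.15 and matplotlib 3.10.9.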

Additional observations from a re-analysis of the deposited data

Results flagged for a closer look

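For 16 of the 87 ribosomal protein genes, the change with the Setd2 knockout label differed between the Srsf2-mutated and the normal background by the interaction test (edgeR's quasi-likelihood test, adjusted p under 0.05, against 32.1% of all genes). Each value is the log2 change in double-mutant over Srsf2-mutated libraries minus that in labelled Setd2 knockout over wild-type libraries. Values are given for 14 of the 16. Of the large subunit, the interaction was 0.89 for Rpl35, 0.70 for Rpl23a, 0.70 for Rpl39, 0.54 for Rpl37a, 0.45 for Rpl31, 0.43 for Rplp0 and 0.38 for Rpl34. Of the small subunit, it was 0.53 for Rps16, 0.41 for Rps14, 0.41 for Rps15a and 0.37 for Rps7. Below 0 it was -2.82 for Rpl24, -1.95 for Rpl3l and -1.26 for Rps4l. Rpl24, Rpl35 and Rps4l were the 3 of 9 named genes whose call held under every alternative that kept them. The calls of Rps14 and Rplp0 were lost under 14 and 13 alternatives, besides ribosomal protein scaling. With total-count scaling their adjusted p was 0.617 and 0.523, and with the GC offset 0.266 and 0.163. That of Rpl3l was lost without any 1 of several libraries.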

How the results depend on the processing

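The counts of ribosomal protein genes called depended on the scaling, the filter and single libraries, and the cause was not tested. Total-count scaling, the GC offset and the set of protein-coding genes were chosen after seeing the data. In labelled Setd2 knockout over wild type, 26 genes were called lower with upper-quartile scaling, 0 with ribosomal protein scaling (3 at an unadjusted p under 0.05; median 0.01), 20 with the stricter filter, 9 with total-count scaling (median -0.13) and 22 with the GC offset, with or without the replicate block (median -0.19). In Srsf2 mutated over wild type, 33 were called lower with upper-quartile and 33 with total-count scaling, 15 lower and 17 higher with ribosomal protein scaling (median 0.06), 27 lower with the stricter filter (median -0.14), 36 lower and 3 higher with the 2 groups alone, 21 lower and 11 higher with the GC offset (median -0.10) and 31 lower with the GC offset and the block. In double mutant over Srsf2 mutated, 10 were called lower and 1 higher with upper-quartile scaling, 2 lower with ribosomal protein scaling, 12 lower without a filter, 27 lower and 1 higher with total-count scaling and 1 lower without the 8 listed paralogs. In double mutant over labelled Setd2 knockout, 35 were called lower and 20 higher with the 2 groups alone, 39 lower and 3 higher with total-count scaling (median -0.24) and 10 lower and 14 higher with the GC offset. The interaction was called above 0 for 3 genes with upper-quartile scaling (median 0.14), 1 with ribosomal protein scaling (5 below, median 0.00), 38 without a filter, 5 with the stricter filter (1 below), 26 by DESeq2, 1 with total-count scaling (7 below, median -0.03), 6 with the GC offset (5 below), 6 with the GC offset and the block, and below 0 for 1 without the paralogs. The double-mutant share of counts was 5.85% without mitochondrially encoded genes. With ribosomal protein scaling Rpl22 was at 0.00 in labelled Setd2 knockout and 0.04 in Srsf2 mutated over wild type, and Rpl5 at 0.06 in Srsf2 mutated over wild type.

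Leaving out each library in turn gave 12 to 66 genes called lower and 0 to 5 higher in labelled Setd2 knockout over wild type (median -0.41 to -0.24), 35 to 63 lower and 3 to 7 higher in Srsf2 mutated over wild type (median -0.39 to -0.17), 2 to 24 lower and 1 to 4 higher in double mutant over Srsf2 mutated (median -0.16 to 0.05), 15 to 26 lower and 3 to 14 higher in double mutant over labelled Setd2 knockout (median -0.17 to -0.00), and 2 to 48 above and 2 to 4 below 0 for the interaction (median 0.15 to 0.39). Where this left a group with 1 library, that library is assumed to vary like the other groups. Deviations of same-numbered libraries (13 pairs) had r from -0.0278 to 0.0398 over all genes and from -0.462 to 0.472 over genes over 50 CPM, where 5 pairs exceeded 0.1, both wild-type and labelled Setd2 knockout pairs (0.472) among them. In groups of 2 libraries the deviations mirror each other, so these 2 pairs are 1 observation. Since the remaining same-numbered pairs did not exceed 0.1, the numbers were not taken to pair the libraries, which this count cannot settle. With a replicate block, 3 genes were called higher in Srsf2 mutated over wild type and 20 above 0 for the interaction.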

Other observations

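Across the 4792 genes over 50 CPM, the difference between the 2 wild-type libraries (replicate 2 minus 1) followed transcript GC content with a Spearman rho of 0.60, and the difference between Srsf2-mutated replicates 3 and 2 followed transcript length with a rho of -0.76. Over the 75 ribosomal protein genes above that level the same values were 0.14 and -0.38. The difference between the 2 libraries labelled Setd2 knockout (replicate 2 minus 1) had a rho of 0.53 with GC content and -0.52 with length. Over the 75 genes these were 0.20 and -0.55. These are correlations across genes within single library pairs. Their part in the ribosomal protein results was not tested.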
